A study of Mus musculus with 16 samples.

Results

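Water and salt transport across the seminal vesicle (SV) was described here by 10 listed genes out of the 31274 genes of the deposited expression table. They were listed by name, as channels and transporters of fluid secretion, and no value entered the rule, though the list was drawn up with earlier results of these data known. They were the water channels Aqp1, Aqp3, Aqp4, Aqp5 and Aqp8, the chloride channel Cftr, the chloride-loading cotransporter Slc12a2, and the epithelial sodium channel (ENaC) subunits Scnn1a, Scnn1b and Scnn1g. RNA-seq of SVs from 5-week-old male C57BL/6 mice gave 16 samples, 4 in each of 4 groups. WT-veh and WT-DES mice were wild type, and αERKO-veh and αERKO-DES mice lacked oestrogen receptor α (ERα) in every tissue through disruption of its gene Esr1. The DES groups received diethylstilbestrol, a synthetic oestrogen, under the skin in corn oil at 2 µg per pup each day from day 1 to day 5 of life, and the veh groups received the oil alone. The anterior prostate was removed from the SV at dissection. For WT-DES the methods describe 3 pools of mice where the table has 4 samples, so the p-values measure the spread between these samples, part of which may be technical.

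The SV is an accessory gland whose epithelium secretes most of the fluid of the ejaculate. In secretory epithelia, NKCC1 (Slc12a2) brings sodium, potassium and chloride into the cell from the basal side, chloride leaves through apical channels such as CFTR, and sodium and water follow. ENaC works the other way and takes sodium back from the lumen, and aquaporins let water cross membranes along the osmotic gradient. AQP1 is a general water channel that is also abundant in capillary endothelium, AQP3 carries water and glycerol in basal and stratified epithelia, AQP5 is an apical channel of glands, AQP8 is found in some ducts and glands, and AQP4 is best known from astrocytes and fast skeletal muscle.

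Expression is given as FPKM, the fragments of a gene scaled by its exon length and by the size of the library, so that levels can be set beside each other between genes. Differences were tested with limma on log2(FPKM + 1) over all 15988 genes whose mean FPKM exceeded 1 in any group, and p-values were adjusted by Benjamini-Hochberg over all of them. A gene was called at an adjusted p of 0.05 or less, with means that differed at least 1.5-fold and exceeded 1 FPKM in a group compared. Of the 10 members, 8 were tested. Aqp4 and Cftr stayed below the minimum in all groups, and Aqp8 passed it through WT-DES alone. Esr1 was lower in all 8 αERKO samples than in all 8 WT samples. Among all genes tested in WT-DES against WT-veh, 4613 were called higher and 3815 lower. Without the 20 most abundant genes in the scaling these counts became 6745 and 1831, with a shift of 0.37 in the median log2 difference.

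The stretches just upstream of the 4 members that rose with DES in WT are shown because these genes were called higher in that group. They are the 250 bases before the RefSeq transcription start on GRCm38.p6, 5′ to 3′ on the strand of the gene. Capitals mark the GC box GGGCGG, the TATA box TATAAA and the oestrogen core word GGTCA, on either strand.
Aqp1, chr6:55336049-55336298, plus strand: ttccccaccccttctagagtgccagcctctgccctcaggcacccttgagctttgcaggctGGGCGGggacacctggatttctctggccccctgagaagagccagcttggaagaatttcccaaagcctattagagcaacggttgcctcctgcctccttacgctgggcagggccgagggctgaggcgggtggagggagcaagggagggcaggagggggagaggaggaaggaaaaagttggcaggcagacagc
Aqp3, chr4:41098184-41098433, minus strand: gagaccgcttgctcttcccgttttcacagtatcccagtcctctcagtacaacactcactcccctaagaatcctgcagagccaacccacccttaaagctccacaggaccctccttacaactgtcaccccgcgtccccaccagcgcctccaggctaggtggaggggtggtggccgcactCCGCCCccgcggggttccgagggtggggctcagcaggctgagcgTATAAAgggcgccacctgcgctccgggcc
Aqp8, chr7:123462044-123462293, plus strand: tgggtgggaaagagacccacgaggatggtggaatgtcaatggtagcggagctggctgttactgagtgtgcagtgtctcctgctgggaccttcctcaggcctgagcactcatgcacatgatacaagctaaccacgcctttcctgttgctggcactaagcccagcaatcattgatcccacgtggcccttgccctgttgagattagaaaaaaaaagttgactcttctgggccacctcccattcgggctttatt
Scnn1g, chr7:121734229-121734478, plus strand: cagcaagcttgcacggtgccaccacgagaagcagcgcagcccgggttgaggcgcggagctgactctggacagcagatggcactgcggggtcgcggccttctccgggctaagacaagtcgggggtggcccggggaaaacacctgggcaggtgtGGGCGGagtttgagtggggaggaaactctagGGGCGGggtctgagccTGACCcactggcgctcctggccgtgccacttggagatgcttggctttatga
The 6 motifs named here were searched on both strands in 32851 RefSeq promoters, of which 7 belonged to members (all except Aqp4, Scnn1a and Slc12a2). The full oestrogen response element GGTCANNNTGACC, which contains the core word in both orientations, was in 0.0639% of all such windows and in none of the 7. The core word GGTCA, in 35.2% of all windows, was found upstream of Aqp5, Scnn1b and Scnn1g, and in Scnn1g it lay 51 to 47 bases before the start. The GC box, in 32.7% of all windows, was upstream of 6 members, with Aqp8 as the exception. Aqp3 alone had a TATAAA, 29 to 24 bases before its start, a word found in 12.4% of all windows. Neither the androgen word TGTTCT (16.1% of windows) nor the AP-1 word TGANTCA (6.75%) was found in any of the 7. These matches describe letters in a window and say nothing of binding.

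Aqp1 and Slc12a2 were the abundant members of the untreated gland. Aqp1 averaged 70.7 ± 4.83 FPKM in WT-veh and Slc12a2 51.8 ± 2.61 (SD, n = 4), without overlap between the 2 genes. The other members were at least 10 times lower by their means, from 4.87 FPKM for Aqp5 to 0.0375 for Cftr, and the samples of Aqp5, Aqp3 and the 3 ENaC subunits overlapped each other. Aqp4 overlapped both Aqp8 and Cftr, and the lowest Aqp8 sample (0.07 FPKM) was just above the highest Cftr sample (0.06). In WT-DES the order became Aqp1, Aqp3, Slc12a2, Scnn1g, Scnn1b, Aqp5, Scnn1a, Aqp8, Cftr and Aqp4 by mean FPKM. Neighbours in this order overlapped between samples, except Aqp8 and Cftr. In both αERKO groups Aqp1 and Slc12a2 were again the highest members, and their samples overlapped in αERKO-veh and not in αERKO-DES.

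**Figure D1:**
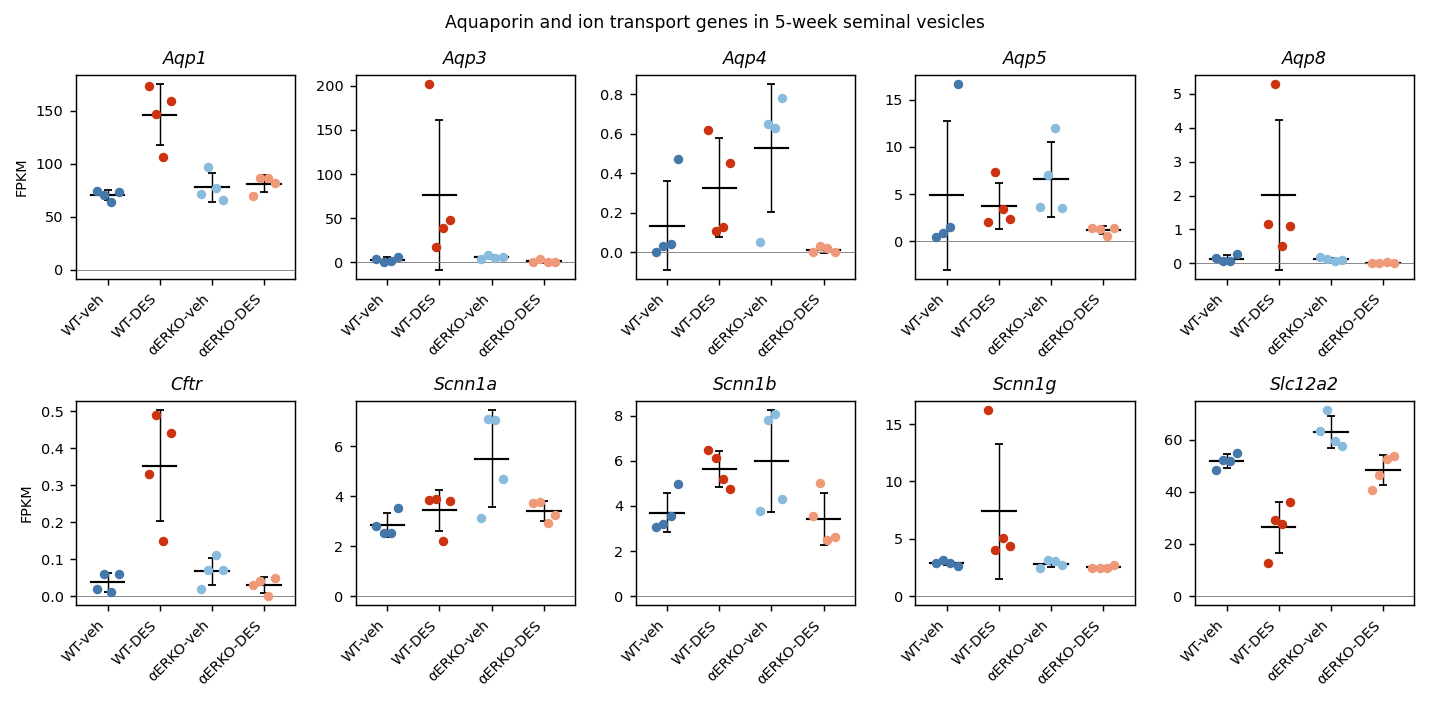
FPKM of the 10 members in each of the 16 samples, by group, with the vertical axis of each panel on its own linear scale. Points are samples 1 to 4 from left to right, the horizontal line is the mean and the bar is 1 SD. Aqp3 and Scnn1g have 1 WT-DES sample far above the other 3, and Slc12a2 is the member whose WT-DES samples lie below all WT-veh samples.

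With neonatal DES in WT, the water channels Aqp1, Aqp3 and Aqp8 and the γ subunit of ENaC rose and the basal chloride loader Slc12a2 fell. Of the 8 members tested, 4 were called higher and 1 lower in WT-DES against WT-veh, where 28.9% of all genes tested were called higher and 23.9% lower. Aqp8, among the 4, could be tested only through its level in WT-DES, so its call is no support for the count. After rescaling without the 20 most abundant genes, 6 members were called higher (Aqp1, Aqp3, Aqp8, Scnn1a, Scnn1b and Scnn1g) and Slc12a2 lost its call. The median log2 difference of the 8 was 0.71, and that of all genes tested −0.01, but the 8 include Aqp8, tested only through WT-DES. Without Aqp8 the middle value was 0.50, that of Scnn1b. Markers of other cells moved in the same comparison. All 6 leukocyte markers were called higher, with sums between 71.9 and 127 FPKM in WT-veh and between 364 and 527 in WT-DES, and so were all 5 fibroblast markers, with sums between 603 and 720 and between 1590 and 1730. All 4 anterior prostate markers were called lower, with sums between 3885 and 7983 FPKM in WT-veh and between 26.1 and 345 in WT-DES. Of 5 smooth muscle markers 4 were called lower, but their sums overlapped (1992 to 2548 and 497 to 2599), with WT-DES sample 1 the highest. The part of these markers in the values of the members was not tested.

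Aqp3, the aquaglyceroporin, had the largest rise of the members tested. The gene lies on the minus strand of chromosome 4 (41092722 to 41098183, GRCm38). The WT-veh samples had 4.03, 0.62, 1.57 and 6.04 FPKM and those of WT-DES 202.33, 17.06, 38.31 and 47.85. The lowest WT-DES sample was above the highest WT-veh sample. The mean rose 24.9-fold, from 3.07 ± 2.45 to 76.4 ± 84.9 FPKM, and the log2 difference was 3.89 (SE 0.66, limma adjusted p = 8.08e-05). Without WT-DES sample 1, the highest, the mean was 34.4 ± 15.8 FPKM (SD, n = 3), 11.2-fold above WT-veh, and the log2 difference was 3.23 (adjusted p = 0.000126). From rank 11928 among all genes by mean FPKM in WT-veh it came to rank 881 in WT-DES, or 2712 without sample 1.

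Aqp1, on the plus strand of chromosome 6 (55336432 to 55348555), rose as well, from a high level. It was at 74.80, 70.94, 63.85 and 73.20 FPKM in WT-veh and at 173.22, 147.11, 106.00 and 159.65 in WT-DES. The groups did not overlap. The mean was 2.07-fold higher (log2 difference 1.02, SE 0.14, limma adjusted p = 1.26e-05). All 6 endothelial markers were called higher too. Their summed FPKM ran from 69.0 to 79.8 in WT-veh and from 136 to 225 in WT-DES, with none of the 6 at 0 in all samples. Aqp1 per 100 FPKM of these markers was 91.7 to 98.2 in WT-veh, and in WT-DES it was 127.71, 70.61, 58.25 and 70.88. By that ratio WT-DES sample 1 was above all WT-veh samples and the other 3 were below them, and the part of endothelium in the rise of Aqp1 was not tested. In bulk tissue, more cells of a type and more RNA per cell cannot be told apart.

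Aqp8, on the plus strand of chromosome 7 (123462291 to 123468004), was near 0 in WT-veh, with 0.15, 0.07, 0.07 and 0.28 FPKM, and reached 1.16, 5.29, 0.51 and 1.10 in WT-DES. No WT-DES sample was as low as a WT-veh sample. The log2 difference was 1.17 (SE 0.30, limma adjusted p = 0.00261). Without WT-DES sample 2 it was 0.74 (adjusted p = 0.000168), and the mean then no longer reached the minimum of 1 FPKM for a call. The leukocyte markers summed to 513 FPKM in sample 2 and were highest, at 527 FPKM, in sample 3, where Aqp8 was lowest. Of the 6 markers, Cd79a, Cd3e and Ptprc were highest in sample 2, Lyz2 and Cd68 in sample 3 and Itgam in sample 1.

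Aqp5, the apical channel of glands, varied widely within WT-veh, at 0.42, 0.89, 1.51 and 16.67 FPKM, and was at 2.02, 7.33, 3.47 and 2.34 in WT-DES. The 4th WT-veh sample was above all WT-DES samples and the other 3 were below them. The log2 difference was 0.41 (95% interval −0.91 to 1.74, limma adjusted p = 0.557). The mean FPKM went the other way, with 4.87 ± 7.88 in WT-veh and 3.79 ± 2.44 in WT-DES, so the direction depended on the scale. Without WT-veh sample 4 the log2 difference was 1.22 (adjusted p = 0.0123) and Aqp5 was called higher. That sample had 306.64 FPKM of the skeletal muscle gene Mylpf, against 2.48 to 17.66 in the other 3 WT-veh samples.

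Aqp4 was at 0, 0.03, 0.04 and 0.47 FPKM in WT-veh and at 0.62, 0.11, 0.13 and 0.45 in WT-DES. All these values were below 1 FPKM and the groups overlapped. Aqp4 was not tested in the main model, and with no minimum on FPKM its log2 difference was 0.23 (limma adjusted p = 0.267).

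The make-up of the aquaporin transcripts is given as shares, which were not tested. The summed FPKM of 12 aquaporin genes ran from 75.1 to 109 in WT-veh and from 161 to 387 in WT-DES. Aqp1 held 81.7 ± 10.2% of the sum in WT-veh and 64.0 ± 13.3% in WT-DES, while Aqp3 held 3.24 ± 2.18% and 26.5 ± 18.4% (SD, n = 4). The Aqp1 shares overlapped, from 66.9 to 90.2% in WT-veh and from 44.8 to 74.2% in WT-DES. The Aqp3 share was 8.60% to 52.3% over the WT-DES samples and at most 5.52% in WT-veh.

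**Figure D2:**
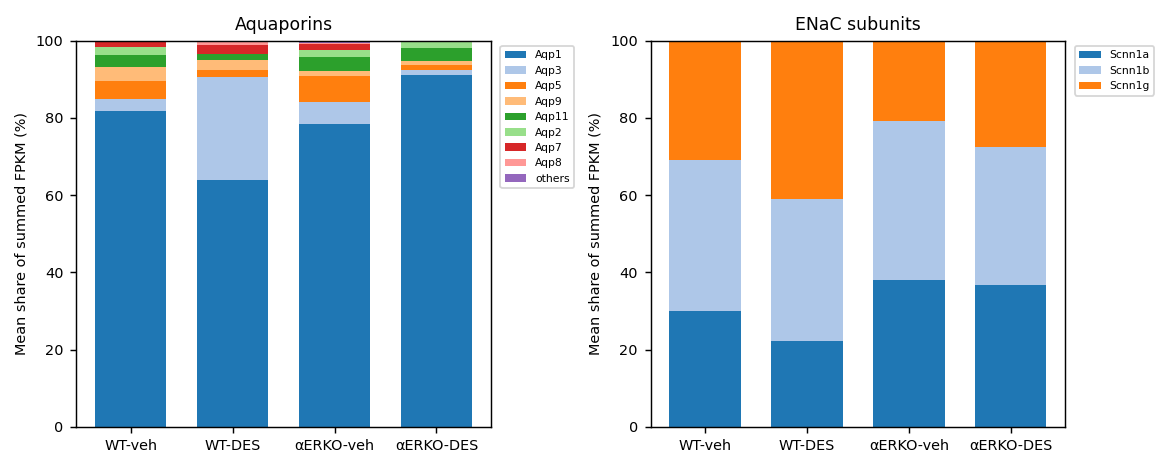
Mean share of the summed FPKM held by each gene of a family, in percent, by group (n = 4 samples each), for the 12 aquaporins on the left and the 3 ENaC subunits on the right. In WT-DES the share of Aqp3 is 26.5% of the aquaporin sum, and Scnn1g holds 41.0% of the ENaC sum, with single samples of Scnn1g overlapping those of WT-veh.

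Of the genes of chloride secretion, Slc12a2 fell and Cftr stayed low. Slc12a2 was at 48.47, 52.15, 51.82 and 54.83 FPKM in WT-veh and at 12.80, 29.12, 27.84 and 35.93 in WT-DES. All WT-DES samples were lower than all WT-veh samples, and sample 1 was the lowest. The mean fell to 0.51 times that of WT-veh (log2 difference −1.03, SE 0.21, limma adjusted p = 0.000512). Without WT-DES sample 1 the log2 difference was −0.73 (adjusted p = 2.47e-05). With the scaling that leaves out the 20 most abundant genes it was −0.61 and under the fold needed for a call, though the adjusted p was 0.0345.

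Most epithelial markers fell as well in WT-DES. Of 7 such genes, 5 were called lower (Krt8, Krt18, Krt19, Epcam and Cldn7) and 2 were not, with Cdh1 at 62.1 to 75.45 FPKM in WT-veh and 75.28 to 98.46 in WT-DES and Elf3 at 53.65 to 60.33 and 48.25 to 68.64. Krt18 and Krt19 were the most abundant of the 7. The summed FPKM of all 7 lay between 1515 and 1670 in WT-veh and between 813 and 1117 in WT-DES. Slc12a2 per 100 FPKM of these markers was 3.06, 3.28, 3.42 and 3.28 in WT-veh and 1.15, 3.07, 3.42 and 4.29 in WT-DES. By this ratio the groups overlapped, and WT-DES sample 1 was the one far below the rest. The 7 secretory genes of the SV were all called lower, with sums between 46166 and 54055 FPKM in WT-veh and between 2372 and 7708 in WT-DES. The part of the epithelial markers in the fall of Slc12a2 was not tested beyond these ratios.

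Cftr was at 0.02, 0.06, 0.01 and 0.06 FPKM in WT-veh and at 0.33, 0.49, 0.15 and 0.44 in WT-DES. The groups did not overlap, but the WT-DES level was still under 1 FPKM. In the model with no minimum on FPKM the log2 difference was 0.38 (limma adjusted p = 8.76e-05).

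The 3 ENaC subunits together form the channel, and 1 of them was called. Scnn1g and Scnn1b lie on the plus strand of chromosome 7, at 121734479 to 121768475 and 121865038 to 121918514 (GRCm38, GENCODE M21). Scnn1g, the γ subunit, was at 2.87, 3.13, 2.86 and 2.66 FPKM in WT-veh and at 16.22, 4.01, 5.08 and 4.35 in WT-DES. All WT-DES samples were above all WT-veh samples, with sample 1 far above the rest. The mean was 2.57-fold higher (log2 difference 0.91, SE 0.28, limma adjusted p = 0.00812). Without WT-DES sample 1 the mean was 1.56-fold higher and the log2 difference 0.49 (adjusted p = 0.00018), and under quantile normalization it was 0.53 and no longer called (adjusted p = 0.159). In a fit of the 2 groups alone the call was lost as well (0.91, adjusted p = 0.0544).

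Scnn1b, the β subunit, was at 3.08, 3.21, 3.57 and 4.98 FPKM in WT-veh and at 6.48, 6.14, 5.19 and 4.75 in WT-DES. The lowest WT-DES sample was below the highest WT-veh sample. The ratio of means was 1.52 and the log2 difference 0.50 (SE 0.22), which missed the threshold (limma adjusted p = 0.0532). It was called in a fit with the length correction, where the log2 difference was 0.60 (adjusted p = 0.0232), and without the 4 samples that had Mylpf above 100 FPKM (0.62, adjusted p = 0.0101). In all, 10 alternatives gave it a call, whereas under quantile normalization the log2 difference was 0.099 (adjusted p = 0.693).

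Scnn1a, the α subunit, was at 2.79, 2.54, 2.51 and 3.54 FPKM in WT-veh and at 3.83, 3.90, 2.19 and 3.80 in WT-DES. The groups overlapped. The log2 difference was 0.19 (95% interval −0.23 to 0.62, limma adjusted p = 0.398), and after rescaling without the 20 most abundant genes it was called higher (0.52, adjusted p = 0.0331). Scnn1g held 31.0 ± 4.98% of the summed ENaC FPKM in WT-veh and 41.0 ± 14.3% in WT-DES, and Scnn1a 30.1 ± 2.01% and 22.3 ± 7.42%. The shares of Scnn1g overlapped between the groups, from 23.8 to 35.2% in WT-veh and from 28.5 to 61.1% in WT-DES, with the highest in sample 1.

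WT-DES sample 1 stood apart in several members at once. It was highest of the 4 in Aqp1, Aqp3, Aqp4, Scnn1b and Scnn1g and lowest in Slc12a2 and Aqp5. It also had the highest sum of the 4 basal epithelial markers (532.62 FPKM, against 247.92 to 418.37 in the other 3), the highest smooth muscle sum (2599 against 497 to 850) and the lowest endothelial sum. Of the basal markers, 2 of 4 were called higher in WT-DES. Aqp3 per 100 FPKM of basal markers was 2.39, 0.29, 0.81 and 2.47 in WT-veh and 37.99, 4.76, 15.45 and 11.44 in WT-DES, so that the groups did not overlap by this ratio either. Scnn1g per 100 FPKM of basal markers overlapped between the groups, at 1.09 to 1.71 in WT-veh and 1.04 to 3.05 in WT-DES. Per 100 FPKM of the 7 epithelial markers the groups did not overlap for any subunit. By that ratio Scnn1g ran from 0.159 to 0.197 in WT-veh and from 0.423 to 1.45 in WT-DES, Scnn1b from 0.194 to 0.298 and from 0.567 to 0.648, and Scnn1a from 0.160 to 0.212 and from 0.269 to 0.453. The sum of these 7 markers was itself lower in WT-DES (813 to 1117 FPKM) than in WT-veh (1515 to 1670). Cdh1 and Elf3 among them were not called lower. Scnn1a in FPKM overlapped between the groups, so its separation by this ratio came with the lower divisor. The part of basal cells and of other epithelium in these values was not tested beyond the ratios. Leaving out WT-DES sample 1 left 5 members called in WT-DES against WT-veh.

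**Figure D3:**
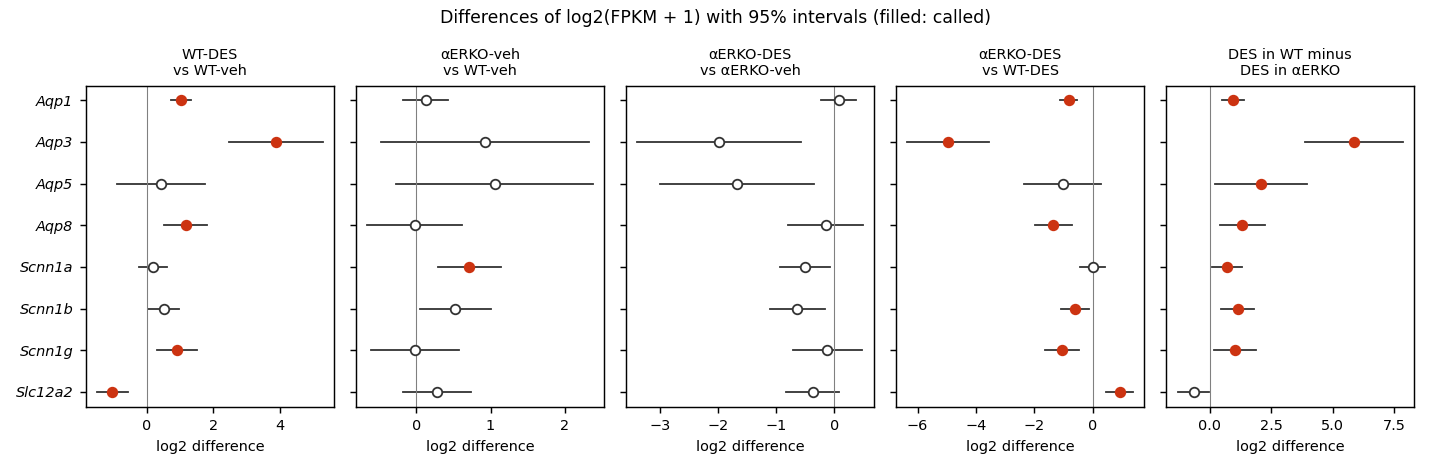
Log2 differences of log2(FPKM + 1) of the 8 members tested, in the 4 comparisons and in the interaction, with each panel on its own horizontal scale. Circles are limma estimates, bars are 95% intervals and filled circles are called. The filled circles number 5, 1, 0, 6 and 7 from left to right.

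Loss of ERα without DES moved few members. Of the 8 tested, 1 was called higher and 0 lower in αERKO-veh against WT-veh, beside 4.5% and 2.63% of all genes. These shares, 719 and 420 genes, moved with single samples. They came to 254 and 164 genes without αERKO-veh sample 2 and to 1014 and 658 without αERKO-veh sample 1. The called member was Scnn1a, at 3.12, 7.11, 7.07 and 4.70 FPKM in αERKO-veh. Its first sample lay within the WT-veh range and the other 3 above it. The mean was 1.93-fold higher (log2 difference 0.71, SE 0.20, limma adjusted p = 0.0199). The call was lost without αERKO-veh sample 2 (0.59, adjusted p = 0.0751), without αERKO-veh sample 3 (0.59, adjusted p = 0.0544) and without WT-veh sample 3 (0.67, adjusted p = 0.0569).

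The same 3 αERKO-veh samples held much skeletal muscle RNA. Mylpf, a light chain of fast skeletal muscle, was at 27.11, 249.99, 384.12 and 219.15 FPKM in αERKO-veh, at 306.64 in WT-veh sample 4 and at most 17.66 in the other samples of WT-veh, WT-DES and αERKO-DES. The summed FPKM of 6 skeletal muscle markers was 1013 to 1517 in the 3 αERKO-veh samples, 1334 in WT-veh sample 4 and 29.5 to 676 in all others. Without these 4 samples, a choice made after seeing the data that leaves 1 αERKO-veh sample whose spread is assumed to be that of the other groups, the log2 difference of Scnn1a was 0.19 (limma adjusted p = 0.935) and no member was called. The part of muscle RNA in the level of Scnn1a was not tested beyond this.

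Among the other members, Scnn1b and Aqp5 were high in αERKO-veh samples 2 and 3 but not in sample 4. Scnn1b was at 3.78, 7.81, 8.07 and 4.29 FPKM in αERKO-veh (log2 difference from WT-veh 0.53, SE 0.22, limma adjusted p = 0.0946), and without αERKO-veh sample 1 it was called higher (0.69, adjusted p = 0.0321). Aqp5 was at 3.68, 7.05, 11.96 and 3.55, all above the 3 lower WT-veh samples and below the 4th (1.06, adjusted p = 0.226). Without WT-veh sample 4 its log2 difference was 1.86 (adjusted p = 0.0183) and it was called. Aqp4 was at 0.05, 0.65, 0.63 and 0.78, so that its 4 values in the vehicle groups above 0.4 FPKM came from the 4 samples rich in Mylpf. In WT-DES, Aqp4 reached 0.62 and 0.45 FPKM with Mylpf at only 3.23 and 10.35.

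**Figure D4:**
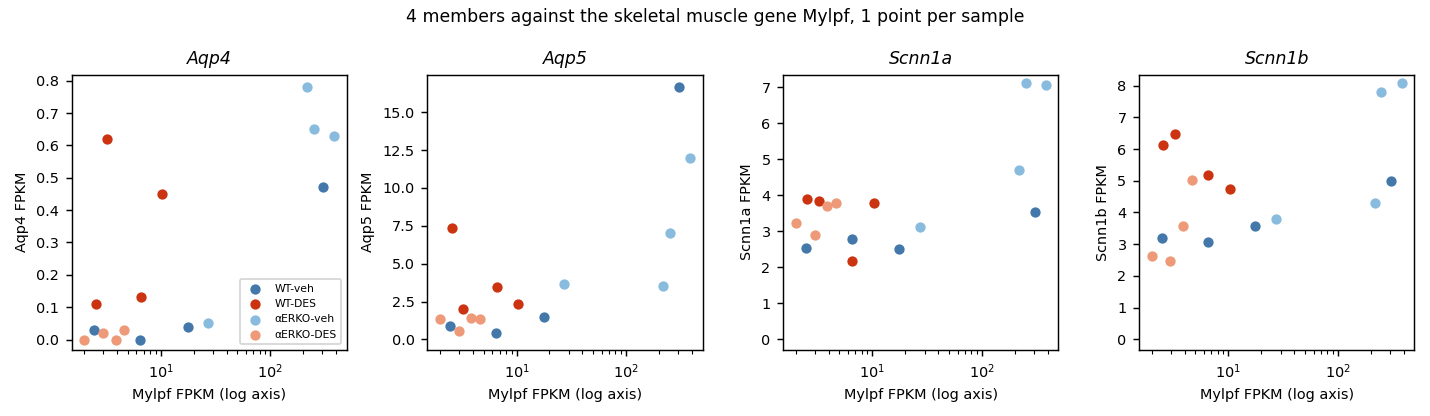
FPKM of Aqp4, Aqp5, Scnn1a and Scnn1b (linear vertical axes) against FPKM of Mylpf (log axis), with 1 point per sample coloured by group. The 4 points above 200 FPKM of Mylpf are WT-veh sample 4 and αERKO-veh samples 2, 3 and 4, and they include the highest value of each gene.

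The remaining members of αERKO-veh did not pass the test. Aqp3 was at 3.48, 8.0, 5.31 and 6.52 FPKM (log2 difference 0.92, limma adjusted p = 0.322) and Aqp1 at 71.20, 97.28, 77.08 and 65.97 (0.12, adjusted p = 0.557). Slc12a2 was at 63.34, 71.35, 59.54 and 57.61, each above the highest WT-veh sample, with a log2 difference of 0.27 (95% interval −0.19 to 0.73, adjusted p = 0.376). Scnn1g was at 2.44, 3.12, 3.04 and 2.74 FPKM and Aqp8 at 0.18, 0.14, 0.07 and 0.10, both within 0.03 of WT-veh on the log2 scale. Cftr was at 0.02, 0.07, 0.11 and 0.07 FPKM.

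Without ERα, no member was called after DES. In αERKO-DES against αERKO-veh, 0 of the 8 passed in limma, and 4 had an unadjusted p under 0.05 (Aqp3, Aqp5, Scnn1a and Scnn1b, all with lower values). Of all genes, 0.0876% (14 genes) were called higher and 1.41% (225 genes) lower. These shares moved widely with single samples. They came to 1 and 0 genes without αERKO-veh sample 4 and to 68 and 561 without αERKO-veh sample 1. Aqp3 was at 0.27, 3.71, 0.16 and 0.12 FPKM in αERKO-DES, with sample 2 within the range of αERKO-veh and the others below it (log2 difference −1.99, SE 0.66, limma adjusted p = 0.0942). With a pseudocount of 0.1 it was called lower (−3.41, adjusted p = 0.0445), as it was in the fit without WT-DES sample 1 (adjusted p = 0.0377).

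Aqp5 was at 1.44, 1.36, 0.58 and 1.38 FPKM in αERKO-DES, all below αERKO-veh (log2 difference −1.67, SE 0.62, limma adjusted p = 0.123). In the fit without WT-veh sample 4 it was called lower (adjusted p = 0.0304). Scnn1a was at 3.71, 3.78, 2.91 and 3.24 (−0.51, adjusted p = 0.136) and Scnn1b at 3.56, 5.03, 2.47 and 2.63 (−0.64, adjusted p = 0.108). For both subunits the samples of αERKO-DES and αERKO-veh overlapped. Without αERKO-veh sample 1, the one poor in Mylpf, Scnn1a and Scnn1b were called lower (−0.71, adjusted p = 0.0264, and −0.80, adjusted p = 0.0426). Without the 4 samples rich in Mylpf, the log2 differences of Scnn1a and Scnn1b were 0.09 and −0.15.

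Aqp1 in αERKO-DES was at 70.07, 86.64, 86.95 and 81.63 FPKM, with a log2 difference from αERKO-veh of 0.07 (95% interval −0.23 to 0.37). Slc12a2 was at 40.84, 46.49, 52.61 and 53.61, below all αERKO-veh samples (−0.38, limma adjusted p = 0.285). Scnn1g was at 2.48, 2.44, 2.44 and 2.70 (−0.12, 95% interval −0.71 to 0.47). Aqp8 was listed at 0, 0, 0.04 and 0, Aqp4 at 0, 0.03, 0.02 and 0 and Cftr at 0.03, 0.04, 0 and 0.05. Aqp1 held 91.2 ± 3.82% of the aquaporin sum in this group.

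After DES, the tissue with and without ERα differed in 6 of the 8 members tested, among them Aqp8, which could be tested only through WT-DES and is no support for the count. In αERKO-DES against WT-DES, 1 was called higher and 5 lower, beside 23.7% and 29.6% of all genes. This comparison shares the WT-DES samples with the first one, so it is no separate evidence about them. Cell markers moved here too. All 6 leukocyte, 6 endothelial, 5 fibroblast and 5 adipose markers and 3 of 4 basal epithelial markers were called lower. Called higher were 5 of 7 epithelial, 4 of 5 smooth muscle, 3 of 4 anterior prostate and all 7 secretory genes. The part of these markers in the values of the members was not tested. Aqp3 differed by −4.95 (SE 0.66, limma adjusted p = 7.09e-06), Aqp8 by −1.34 (adjusted p = 0.000886), Scnn1g by −1.05 (adjusted p = 0.00309), Aqp1 by −0.82 (adjusted p = 9.17e-05) and Scnn1b by −0.61 (adjusted p = 0.0218) on the log2 scale. Slc12a2 was 0.93 higher (adjusted p = 0.00117). Scnn1g differed by −0.64 without WT-DES sample 1 and Slc12a2 by 0.63, both still called. Under quantile normalization Scnn1g lost the call (−0.53, adjusted p = 0.16) and Slc12a2 fell short of the fold (0.68, adjusted p = 0.0355), and Slc12a2 also lost it after rescaling without the 20 most abundant genes (0.56, adjusted p = 0.0518). Aqp8 without WT-DES sample 2 differed by −0.91 and fell below the minimum mean for a call.

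The Scnn1b samples overlapped, at 2.47 to 5.03 FPKM in αERKO-DES and 4.75 to 6.48 in WT-DES. Its call was lost without WT-DES sample 1 (−0.55, limma adjusted p = 0.0529), without WT-DES sample 2 (−0.58, adjusted p = 0.0509), without αERKO-DES sample 3 (−0.51, adjusted p = 0.0703) or without αERKO-DES sample 4 (−0.53, adjusted p = 0.064), and under quantile normalization, where the difference was −0.11 (adjusted p = 0.67). Scnn1a was 0.01 higher (95% interval −0.41 to 0.44), and under quantile normalization it was called higher (0.58, adjusted p = 0.0143). Aqp5 was 1.03 lower (95% interval −2.35 to 0.30, adjusted p = 0.147), though its samples did not overlap (0.58 to 1.44 FPKM in αERKO-DES and 2.02 to 7.33 in WT-DES). It was called lower in the fit without WT-veh sample 4 (adjusted p = 0.0193) and in the fit of the 2 groups alone.

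The change with DES differed between the genotypes for 7 of the 8 members, among them Aqp8, whose test again rested on WT-DES alone and adds nothing to the count. The interaction, the DES difference of WT minus the DES difference of αERKO on the log2 scale, was called positive for 29.6% and negative for 26.9% of all genes tested. It was 5.87 for Aqp3 (SE 0.93, limma adjusted p = 5.43e-05), 1.32 for Aqp8 (SE 0.42, adjusted p = 0.0119), 1.14 for Scnn1b (SE 0.32, adjusted p = 0.00478), 1.03 for Scnn1g (SE 0.39, adjusted p = 0.0282) and 0.95 for Aqp1 (SE 0.20, adjusted p = 0.00067). For Aqp1 and Scnn1g most of it was the rise in WT, whereas for Scnn1b the rise of 0.50 in WT and the difference of −0.64 in αERKO both entered. For Aqp3 the rise of 3.89 in WT and the difference of −1.99 in αERKO, which was not called, both entered. Scnn1g had an interaction of 0.62 without WT-DES sample 1 (adjusted p = 0.000418) and Aqp8 one of 0.89 without WT-DES sample 2 (adjusted p = 0.000516). Under quantile normalization the calls were those of Aqp1, Aqp3 and Aqp8, while Scnn1b (0.55, adjusted p = 0.121), Scnn1g (0.45, adjusted p = 0.407), Scnn1a (0.05, adjusted p = 0.883) and Aqp5 (1.43, adjusted p = 0.161) were not called. With no minimum on FPKM, the interaction was 0.43 for Cftr (adjusted p = 0.00067) and 0.79 for Aqp4 (adjusted p = 0.0113). Cell markers had interactions too. All 6 leukocyte, 6 endothelial, 5 fibroblast and 5 adipose markers and 3 of 4 basal epithelial markers were called positive. Called negative were 5 of 7 epithelial, 4 of 5 smooth muscle, 3 of 4 anterior prostate and all 7 secretory genes. The part of these markers in the interactions of the members was not tested.

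Aqp5 and Scnn1a were near the threshold, with interactions of 2.08 (SE 0.88, limma adjusted p = 0.0448) and 0.70 (SE 0.28, adjusted p = 0.0366). For both, the DES difference in αERKO (−1.67 and −0.51, neither called) was larger in size than that in WT (0.41 and 0.19, neither called). Both lost the call when most single samples were left out, with adjusted p up to 0.097 for Aqp5 (without WT-veh sample 1) and 0.0809 for Scnn1a (without αERKO-veh sample 2). Slc12a2 had an interaction of −0.66 (SE 0.30) that missed the threshold (adjusted p = 0.0652), and it was called with the length correction (−1.11, adjusted p = 0.00421) and without WT-DES sample 4 (−0.83, adjusted p = 0.0178). It was smaller after rescaling without the 20 most abundant genes (−0.11, adjusted p = 0.792), under quantile normalization (−0.28, adjusted p = 0.53) and without WT-DES sample 1 (−0.36, adjusted p = 0.0393, below the fold for a call). The fit without the 4 samples rich in Mylpf leaves 1 αERKO-veh sample, so only its estimates are given. Its interactions were 0.85 for Aqp1, 5.65 for Aqp3, 2.34 for Aqp5, 1.45 for Aqp8 and −0.62 for Slc12a2. Those of Scnn1b, Scnn1g and Scnn1a were 0.77, 0.85 and 0.18.

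Other genes of epithelial fluid transport were called in both directions with DES in WT, in shares near those of all genes. Of 75 listed genes, 66 were tested, and 21 were called higher and 16 lower in WT-DES against WT-veh, beside 28.9% and 23.9% of all genes tested, so the counts by list are a description of the genes and not a result about the lists. In αERKO-veh against WT-veh 5 were higher and 0 lower, beside 4.5% and 2.63% of all genes, and in αERKO-DES against αERKO-veh 0 were higher and 2 lower, among them Wnk2, beside 0.0876% and 1.41%. In αERKO-DES against WT-DES 15 were higher and 26 lower, beside 23.7% and 29.6%. The genes named are among those with the largest called rise or fall in each list. Levels in the following sentences are mean FPKM ± SD of 4 samples, and differences are on the log2 scale.

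Among chloride and bicarbonate transporters, 5 of 12 tested rose and 1 fell. The fall was that of Slc26a3, an apical chloride-bicarbonate exchanger, from 23.4 ± 5.33 to 0.995 ± 0.318 (−3.59, limma adjusted p = 4.52e-10). Slc4a4, the sodium-bicarbonate cotransporter that loads bicarbonate from the basal side, rose from 0.63 ± 0.116 to 3.87 ± 1.36 (1.54, adjusted p = 1.11e-05). Its WT-veh mean was below 1 FPKM, so its call needed the WT-DES level and is no support for the count. The genes listed as Clca2 and Clca1, of a family named for calcium-activated chloride currents, rose from 5.34 ± 0.509 to 69.8 ± 13.3 (3.46) and from 5.88 ± 1.13 to 30.9 ± 4.33 (2.22). Near-identical neighbours of this family can share reads, and symbols have since been reassigned among them, so their identity is uncertain.

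Among sodium pump subunits and sodium-proton exchangers, 3 of 14 rose and 4 fell. Atp1b1, the common epithelial β subunit of the pump, fell from 320 ± 31.9 to 84.8 ± 30.3 (−1.98, limma adjusted p = 5.02e-07), and Slc9a2, an apical sodium-proton exchanger, from 39.5 ± 2.43 to 4.26 ± 2.34 (−3.04). Atp1b2, a pump subunit best known from glia, rose by 1.34, and Fxyd5, a pump modulator, by 1.18. Of 10 potassium channel genes tested, 4 rose and 2 fell. Kcnk1, a leak channel, fell from 168 ± 4.92 to 41.1 ± 6.14 (−2.01), Kcnj15 fell by 1.15, and the channel subunits Kcne1 and Kcne3 each rose by 1.04.

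Of 10 ENaC regulators tested, 2 were higher and 4 lower. Sgk1, the kinase that keeps ENaC at the membrane, fell from 488 ± 43.3 to 83.1 ± 36.7 (−2.64, limma adjusted p = 8.65e-08). Prss8, a protease that activates ENaC, fell from 95.5 ± 3.73 to 40.3 ± 2.5 (−1.23) and the protease inhibitor Spint2 from 686 ± 39.9 to 221 ± 23.3 (−1.63). Tmprss4, another membrane protease, rose from 0.41 ± 0.528 to 11.04 ± 4.52 (3.07, adjusted p = 1.03e-07), and Nr3c2, the mineralocorticoid receptor, from 1.61 ± 0.282 to 2.79 ± 0.325 (0.54). The WT-veh mean of Tmprss4 was below 1 FPKM, so its call needed the WT-DES level and is no support for the count. Scnn1g was thus higher in the group in which Sgk1 and Prss8 were lower.

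Of 8 cation-chloride cotransporter and WNK pathway genes, 4 rose and 1 fell. The potassium-chloride exporters Slc12a7 and Slc12a4 rose by 1.93 and 0.88, in the group where the importer Slc12a2 was lower, and Stk39, the kinase that activates NKCC1, fell by 0.85, from 43.1 ± 1.91 to 23.5 ± 2.31 (limma adjusted p = 2.32e-07). Of 8 carbonic anhydrase and proton pump genes, 2 rose and 3 fell. The cytosolic Car2 fell from 144 ± 14.5 to 30.6 ± 14.5 (−2.32) and the membrane-bound Car12 rose from 1.52 ± 0.361 to 4.76 ± 1.42 (1.16). Of 4 other aquaporins tested, Aqp7 rose from 1.27 ± 0.617 to 4.90 ± 2.41 (1.32) and Aqp2 fell from 1.76 ± 0.844 to 0.09 ± 0.0949 (−1.30). Aqp7 is an aquaglyceroporin of fat, and 4 of 5 adipose markers were also called higher in WT-DES.

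**Figure D5:**
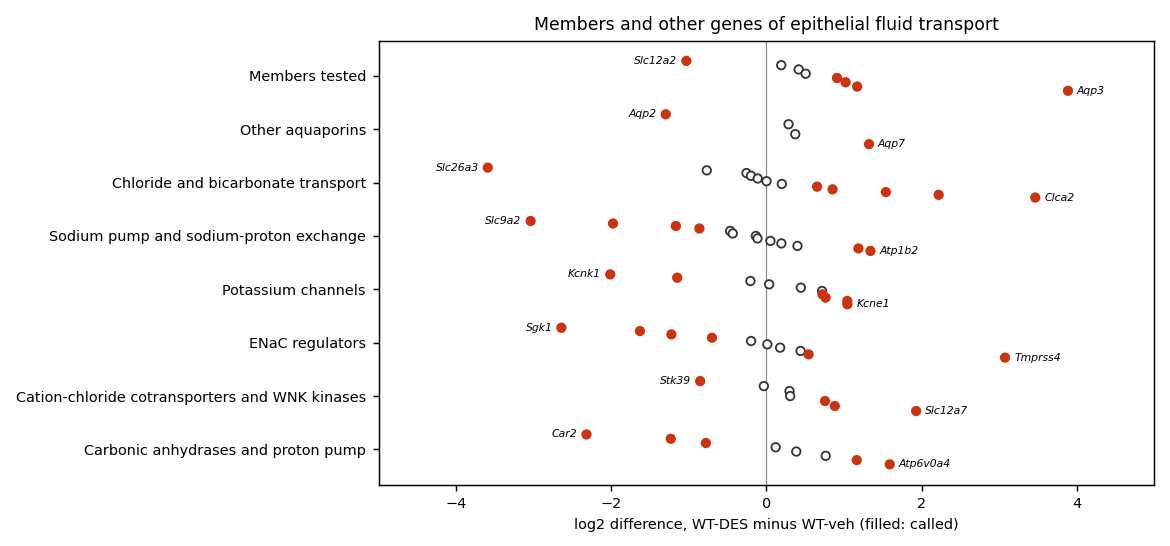
Log2 differences between WT-DES and WT-veh of the members tested and of 7 lists of other transport genes, 1 point per gene shown, with filled points called and the extreme genes of each list named. Every list has called genes on both sides of 0, from −3.59 for Slc26a3 to 3.46 for Clca2 among the listed genes, with Aqp3 at 3.89.

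The genes most like each member differed between the members. Over the 16 samples, Pearson's r of log2(FPKM + 1) with Aqp1 was highest for Tmem43, Tgm2 and Me3 (0.95 each), with Aqp3 for Ndrg2, Syt8 and Sprr1a (0.97 each) and with Slc12a2 for Slain1 (0.95), Acss1 and Bmpr1b (0.94 each). Scnn1g went with Chil3 (0.99), Dnmt3l (0.98) and Hsd17b2 (0.97), and Aqp8 with Spag11b (0.96), Sectm1b (0.93) and Ccr7 (0.92). Scnn1b was nearest to Wnk2 (0.91), Cyp2f2 (0.88) and Gprc5a (0.87), and Aqp5 to Cxcl17 (0.92), Papss2 (0.88) and Cldn10 (0.87). Scnn1a was nearest to Actn2, Klhl41 (0.81 each) and Gys1 (0.80), of which Actn2 and Klhl41 are genes of striated muscle. Correlations were taken against 12463 or 12464 other tested genes, those with a mean of at least 5 FPKM in any group. Several genes named, among them Chil3, Dnmt3l, Hsd17b2 and Spag11b, reached that minimum in WT-DES alone. Their r was thus partly set by the level in that group. The 16 points share the libraries, the groups and single high samples such as WT-DES sample 1, and they are given as a description only.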

How the data were processed

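RNA from 16 SV samples was measured by RNA-seq. The authors kept paired-end Illumina reads of sufficient quality, aligned them to mm10 with TopHat2 2.0.4 and deposited FPKM values computed with Cufflinks 2.0.2. The annotation is not given in the sources used here. FPKM hold no fragment counts, so the depth is unknown and precision rests on the spread of 4 samples per group.

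Genes whose mean FPKM exceeded 1 in any group were fitted as log2(FPKM + 1), pseudocount 1, with limma 3.58.1 in R 4.3.3, with 1 mean per group over 16 samples, a variance trend and Benjamini-Hochberg adjustment. The scale understates changes of low genes. Steps were tested on simulated data. Alternatives were a pseudocount of 0.1, no minimum or a minimum of 5 FPKM, median-ratio and quantile scaling, rescaling without the 20 most abundant genes, a length correction (GENCODE M21), the compared groups alone, a replicate block and leaving out each sample. Fits without the 4 samples with Mylpf above 100 FPKM were chosen after seeing the data. Members and lists were chosen with earlier results of these data known. All members were named. From each list, up to 3 called genes with the largest rise and 3 with the largest fall in WT-DES against WT-veh could be named, and for each member the 3 genes with the highest r. Not every gene that meets these rules is reported here. Tables and figures were made in Python 3.11.15 (matplotlib 3.10.9, numpy 2.4.6, pandas 2.3.3).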

Additional observations from a re-analysis of the deposited data

Results flagged for a closer look

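Single samples stood far from the other 3 of their group in 10 of the 40 sets of 4 values examined (10 members in 4 groups), by the ratio of gap to range (Dixon, 95% level). That level holds for independent values with a normal spread. FPKM near 0 do not have such a spread and the sets share the same 16 samples, so the flags are a description only. In WT-DES, sample 1 was far above the others for Aqp3 (202.33 FPKM) and Scnn1g (16.22), sample 2 for Aqp8 (5.29), and sample 3 was below the others for Scnn1a (2.19). In WT-veh, sample 4 was far above the others for Aqp5 (16.67) and Aqp4 (0.47). In αERKO-DES, Aqp3 was at 3.71 in sample 2, Aqp8 at 0.04 in sample 3 with the others listed at 0, Aqp5 at 0.58 in sample 3, the lowest, and Scnn1g at 2.70 in sample 4. Several of the αERKO-DES flags concern differences of less than 1 FPKM.

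The change with DES differed between WT and αERKO, by the interaction in limma, for Aqp1 (0.95), Aqp3 (5.87), Aqp5 (2.08), Aqp8 (1.32), Scnn1a (0.70), Scnn1b (1.14) and Scnn1g (1.03) on the log2 scale. Those of Aqp1 and Aqp3 kept the call in all 25 alternatives run for the interaction. Under quantile normalization those of Aqp5, Scnn1a, Scnn1b and Scnn1g were not called. Without the 4 samples rich in Mylpf, which leaves 1 αERKO-veh sample, those of Aqp8, Scnn1b, Scnn1g and Scnn1a were 1.45, 0.77, 0.85 and 0.18.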

How the results depend on the processing

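Of 1037 member values recomputed under the alternatives, 936 kept their direction and side of the threshold, 49 lost a call, 31 gained one and 21 changed sign, of which 0 had passed the adjusted p in the main fit. In a comparison of 2 groups, leaving out a sample of another group cannot change the log2 difference. Only the shared spread and the adjusted p can move there, so many of the 936 could not change direction. Leaving out single samples gave 4 to 7 members called in WT-DES against WT-veh, 0 to 2 in αERKO-veh against WT-veh, 0 to 2 in αERKO-DES against αERKO-veh, 4 to 7 in αERKO-DES against WT-DES and 5 to 7 in the interaction. In αERKO-veh against WT-veh, 2 members were called after rescaling without the 20 most abundant genes and 0 without the 4 samples rich in Mylpf. A pseudocount of 0.1 gave 1 call in αERKO-DES against αERKO-veh. The interaction had 3 calls under quantile normalization (Aqp1, Aqp3 and Aqp8). The fit without the 4 samples rich in Mylpf leaves 1 αERKO-veh sample, so its counts carry little weight. The causes were not tested.

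The sign changes were small values. Under quantile normalization Aqp5 and Scnn1a were at −0.0061 and −0.29 in WT-DES against WT-veh, and Aqp1 and Scnn1g at −0.078 and 0.084 in αERKO-DES against αERKO-veh. Rescaling gave 0.00021 for Aqp8 and 0.11 for Scnn1g in αERKO-veh against WT-veh, −0.058 for Aqp1 in αERKO-DES against αERKO-veh and −0.29 for Scnn1a in αERKO-DES against WT-DES. The length correction gave 0.21 for Aqp8 and 0.036 for Scnn1g in αERKO-veh against WT-veh. In that comparison, leaving out single samples gave −0.053 to 0.033 for Aqp8 (above 0 without αERKO-veh sample 3, at 0.00019, and WT-veh sample 4) and −0.055 to 0.032 for Scnn1g (above 0 without αERKO-veh sample 1 and WT-veh sample 2, at 0.01), and Aqp8 was at 0.11 without the 4 samples rich in Mylpf. In αERKO-DES against αERKO-veh, Aqp1 ran from −0.0019 without αERKO-veh sample 4 to 0.18, and Scnn1a and Scnn1g were at 0.093 and 0.030 without the 4 samples rich in Mylpf. In αERKO-DES against WT-DES, Scnn1a ran from −0.14 without WT-DES sample 3 to 0.067, and was at −0.02 and −0.03 without αERKO-DES samples 1 and 2.

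With a replicate block the members called numbered 5, 1, 0, 6 and 7, in the order of comparisons used above, but the interaction of Aqp5 lost its call (adjusted p = 0.0564) and that of Slc12a2 gained one (adjusted p = 0.0455). Samples of the same number did not deviate together (r from −0.21 to 0.28 over 24 pairs, 3 above 0.1), and 3 of 16 samples correlated best with their own number, so the numbers do not pair the samples.

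Rescaling without the 20 most abundant genes shifted the median log2 difference of all genes by 0.37, 0.14, −0.10, −0.33 and 0.49 in the same order. It gave 1453 genes higher and 122 lower in αERKO-veh against WT-veh in place of 719 and 420, 2031 and 6378 in αERKO-DES against WT-DES in place of 3797 and 4740, and 7118 and 1969 in the interaction in place of 4729 and 4296. Quantile normalization gave 3 and 2 genes in αERKO-DES against αERKO-veh in place of 14 and 225. The depth of the libraries is unknown, so values below 1 FPKM, as for Aqp4, Aqp8 and Cftr, have no counting error attached.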
